A study of Homo sapiens with 12 samples.

Results

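The regulatory long noncoding RNAs described here were grouped by name as abundant, although PVT1 and DANCR stood below NEAT1, MALAT1 and TUG1 by counts. These 5 of the 26334 genes in the count files were followed over the 4 conditions of the series. They were NEAT1, MALAT1, TUG1, PVT1 and DANCR, and they were chosen by symbol from the column of each library's gene counts that holds reads on the gene's own strand. All 5 were among the 15352 genes with enough counts to be tested. The cells were A549, an established human line from a lung tumor, infected with a lentivirus and selected with puromycin at 1 ug/ml for 4 days, so that every group carries a virus and went through the selection. They expressed either a control short hairpin RNA (shControl) or one directed against RNF113A (shRNF113A), a subunit of the spliceosome, and were left untreated or exposed to Cisplatin, a DNA crosslinking drug, at 25 ug/ml for 20 h. That unit is the one in the sample labels, whereas the study's methods for other assays give Cisplatin in micromolar, so the dose of these libraries is uncertain. Each of the 4 conditions had 3 replicates that the study describes as biological. All values come from 1 line and 1 depletion method, and the libraries were made with a stranded mRNA kit, which captures RNA through a stretch of A at or near its 3′ end.

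NEAT1 is the RNA scaffold of paraspeckles, nuclear bodies that hold the proteins NONO, SFPQ and PSPC1. MALAT1 is a nuclear RNA that gathers in nuclear speckles, where splicing factors are stored. TUG1 is a spliced RNA found in both nucleus and cytoplasm, PVT1 is transcribed beside the oncogene MYC, and DANCR is a short spliced RNA known for holding back differentiation. None of them is translated into an abundant protein.

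In hg19, NEAT1 lies on chr11:65190269-65213009 and MALAT1 on chr11:65265233-65273983, both on the plus strand, 52223 bases apart. Each has 1 annotated exon, of 22741 and 8751 bases. TUG1 lies on chr22:31365197-31375380 on the plus strand with 3 annotated transcripts of 3 to 4 exons, and its first exon overlaps the start of MORC2 on the minus strand. DANCR lies on chr4:53578621-53580305 with 3 exons that add up to 855 bases. At least 99.35% of the reads on each of the 5 genes were on its own strand in every library, and the gene counts of NEAT1 do not separate its short isoform from its long one.

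The ends of MALAT1 and NEAT1 are shown because these RNAs, unlike TUG1, PVT1 and DANCR, are known to be cut at a tRNA-like structure rather than polyadenylated there, which leaves a genome-encoded A-rich tract that pairs with 2 U-rich stretches. The 120 bases of each gene around that tract are given from the GRCh37 genome on the plus strand, chr11:65273492-65273611 for MALAT1 and chr11:65212916-65213035 for NEAT1. Capitals mark both T-rich stretches and the A-rich tract.
MALAT1: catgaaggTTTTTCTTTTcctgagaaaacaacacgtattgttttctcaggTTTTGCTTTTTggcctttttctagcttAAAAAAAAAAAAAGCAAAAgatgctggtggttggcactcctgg
NEAT1: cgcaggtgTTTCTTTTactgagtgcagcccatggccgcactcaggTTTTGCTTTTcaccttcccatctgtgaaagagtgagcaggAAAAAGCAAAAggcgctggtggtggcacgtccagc
The A-rich tract had 19 bases in MALAT1 and 11 in NEAT1. The annotated MALAT1 gene ended 396 bases after its tract, whereas the annotated NEAT1 gene ended inside it. The search asked for the T-rich letters ahead of the A-rich ones, so their shared order in both genes was set by the search. Of 1092737 windows of 120 bases laid end to end along chromosome 11, read on both strands, 1074 (0.0983%) held the A-rich letters and 1 held all of them in order. Letters cut by the edge of a window were missed, and both genes hold all of them in order. These counts thus do not give how often the letters occur.

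Promoter sequences, from 250 bases before to 50 bases after the start in RefSeq (GRCh38.p14), were matched for 3 of the 5 genes: MALAT1, TUG1 and DANCR. Those of TUG1 (chr22:30969015-30969314), DANCR (chr4:52712144-52712443) and the first of 2 MALAT1 starts (chr11:65497488-65497787), all on the plus strand, are shown because MALAT1 and TUG1 moved together below while DANCR did not always follow them. Capitals mark every match, on either strand, to the CCAAT box (CCAAT), the GC box (GGGCGG), the E-box (CACGTG) and the TATA box (TATAAA).
MALAT1: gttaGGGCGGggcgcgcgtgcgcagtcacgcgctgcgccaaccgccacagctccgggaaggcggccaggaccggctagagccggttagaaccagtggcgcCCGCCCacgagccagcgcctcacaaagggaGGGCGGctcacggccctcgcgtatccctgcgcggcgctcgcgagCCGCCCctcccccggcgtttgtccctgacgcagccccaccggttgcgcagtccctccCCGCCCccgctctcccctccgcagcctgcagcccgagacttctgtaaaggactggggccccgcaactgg
TUG1: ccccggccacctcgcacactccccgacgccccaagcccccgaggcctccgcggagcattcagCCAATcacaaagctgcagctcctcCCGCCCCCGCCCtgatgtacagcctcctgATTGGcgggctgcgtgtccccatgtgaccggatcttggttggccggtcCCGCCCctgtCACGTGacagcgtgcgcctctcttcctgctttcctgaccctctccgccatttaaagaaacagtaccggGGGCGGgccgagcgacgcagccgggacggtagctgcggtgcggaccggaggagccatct
DANCR: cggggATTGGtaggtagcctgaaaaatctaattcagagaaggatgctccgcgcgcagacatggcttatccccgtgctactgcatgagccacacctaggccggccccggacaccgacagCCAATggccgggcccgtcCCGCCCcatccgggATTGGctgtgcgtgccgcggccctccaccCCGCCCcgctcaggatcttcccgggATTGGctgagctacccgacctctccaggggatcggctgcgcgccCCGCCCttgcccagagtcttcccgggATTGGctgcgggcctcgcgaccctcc
The MALAT1 window held 5 matches to GGGCGG and none to CCAAT, the TUG1 window held 4 and 2, and the DANCR window held 3 and 5. Among 35116 RefSeq promoter windows of this length, 45% held GGGCGG and 34.6% held CCAAT. The TUG1 window also held CACGTG, found in 7.26% of all windows, and TATAAA, found in 11.5%, was in none of the 3 windows shown. The window of the second MALAT1 start (chr11:65498795-65499094), not shown, held 1 match to TATAAA and none to the other letters. These matches describe letters only, and no binding was measured here.

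Depth ranged from 33859097 to 56071514 read pairs per library, and the 3 depleted, Cisplatin-treated libraries were the shallowest. The 8 epithelial markers of the line summed to between 12420 and 29290 CPM (counts scaled to a common library size, with that size set by the trimmed mean of M values), and were lower with Cisplatin (12420 to 17510 in control and 13480 to 14550 in depleted cells) than without it (19780 to 29290 and 24260 to 26140). The 4 blood markers summed to at most 4.51 CPM, with the leukocyte gene PTPRC at 0 to 0.127 CPM and CD14 at 1.14 to 4.36 CPM. The 4 fibroblast markers summed to 4.03 to 35.6 CPM and the 3 endothelial markers to at most 0.788 CPM. Some uniquely mapped pairs matched no annotated exon on their own strand. They are called pairs outside annotated exons below, although they also hold pairs on the opposite strand of an exon. Their share was 4.97 to 5.40% in untreated control cells and 4.98 to 7.54% in control cells with Cisplatin. In depleted cells it was 6.13 to 6.93% without and 10.3 to 10.9% with Cisplatin.

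The targeted gene was checked first. RNF113A stood at 20.3, 19.5 and 19.8 CPM in the untreated control replicates and at 15.3, 15.8 and 16.8 CPM in the untreated depleted ones, so that the groups did not overlap. It fell by 0.31 ± 0.09 (SE) on the log2 scale, 1.24-fold lower (edgeR quasi-likelihood test, Benjamini-Hochberg adjusted p = 0.0247). With Cisplatin the control replicates stood at 31.5, 28.9 and 27.7 CPM and the depleted ones at 25.8, 24.3 and 29.9 CPM. These groups overlapped, and the log2 difference of -0.14 ± 0.09 did not pass the test (adjusted p = 0.233). The mRNA difference between the hairpins was thus small, and the RNF113A protein was not measured here.

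**Figure D1:**
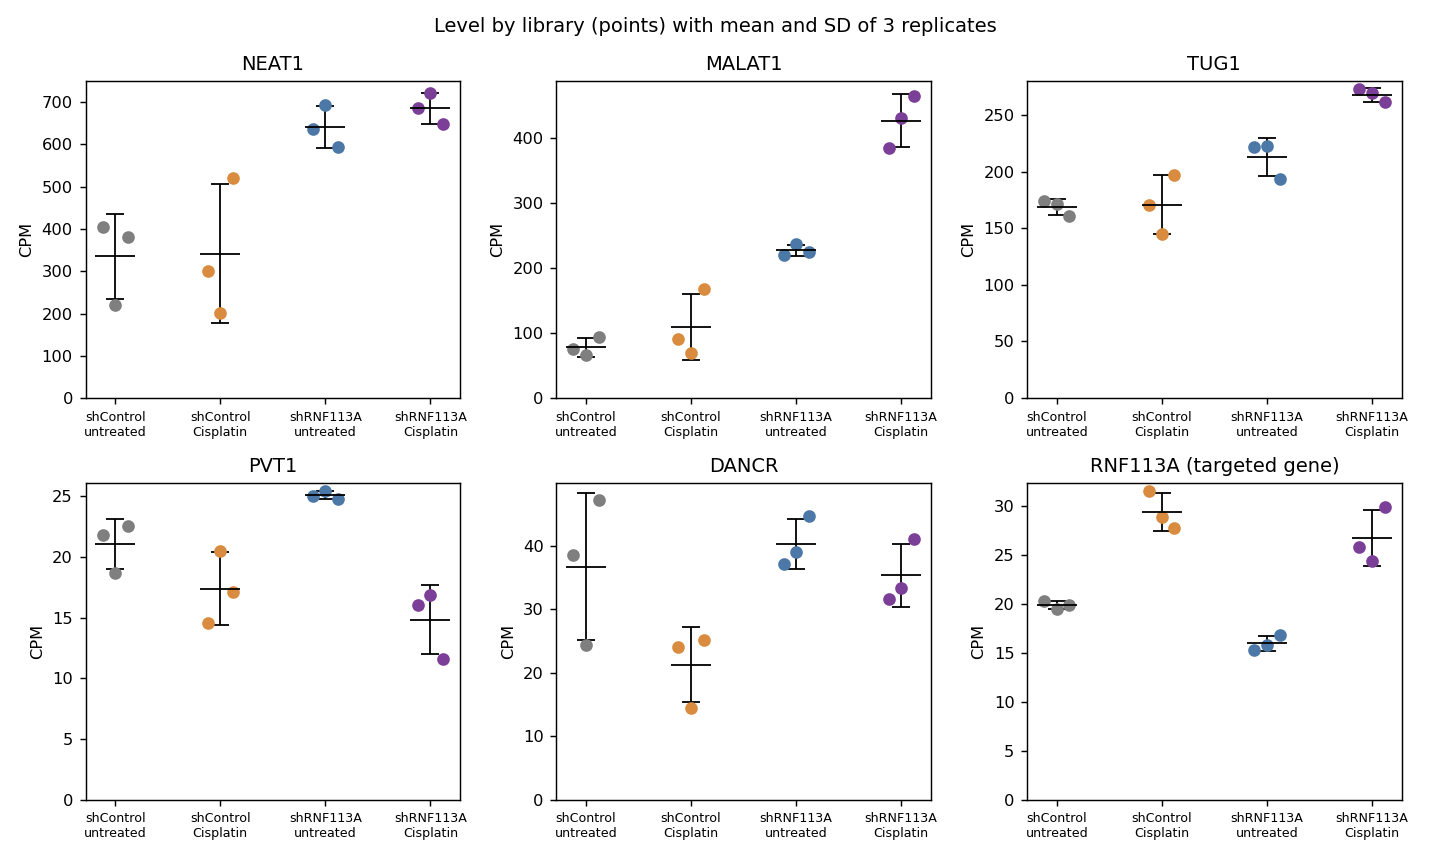
Level of each of the 5 RNAs and of RNF113A in CPM (linear axis from 0) in the 12 libraries, by condition; points are libraries, and the bar and whiskers are the mean and SD of 3 replicates. NEAT1 and MALAT1 were higher in all 6 depleted libraries than in all 6 control libraries, and PVT1 had its lowest mean in depleted cells with Cisplatin.

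The depletion comparison asked how the RNAs differ between control and RNF113A-depleted cells. NEAT1, MALAT1 and TUG1 rose with depletion whether or not Cisplatin was given, and MALAT1 had the largest change of the 5. In a fit with additive terms for Cisplatin and depletion over all 12 libraries, 3 of the 5 RNAs were higher in depleted cells, against 23.5% of all tested genes, and none was lower, against 24%. Of all tested genes 11% both passed and changed at least 2-fold, and of the 5 RNAs MALAT1 did.

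MALAT1 stood at 74.8, 66.1 and 94.6 CPM in the untreated control replicates and at 220.3, 236.6 and 225.6 CPM in the untreated depleted ones. Every depleted library was above every control library. The log2 fold change was 1.54 ± 0.25 (2.90-fold; adjusted p = 0.000906). With Cisplatin the control replicates stood at 91.4, 69.7 and 167.4 CPM and the depleted ones at 384.7, 432.2 and 465.2 CPM. The groups were again apart, although control replicate 3 was well above the others. The log2 fold change was 1.96 ± 0.25 (3.901-fold; adjusted p = 0.000128). In the additive fit it was 1.75 ± 0.18 (3.37-fold; adjusted p = 9.45e-06), rank 590 by size among the 15352 genes, and it passed in all 18 alternative fits. The share of pairs outside annotated exons was highest in the depleted, Cisplatin-treated libraries, where MALAT1 was highest too. Among control libraries, treated replicate 3 had the highest share (7.54%) and the most MALAT1, and untreated replicate 2 the lowest share (4.97%) and the least. The untreated depleted libraries (6.13 to 6.93%) had a lower share than treated control replicate 3 and more MALAT1. The part of that share in the result was not tested.

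NEAT1 was the most abundant of the 5 by counts. It stood at 404.3, 220.5 and 380.1 CPM in untreated control cells and at 637.2, 693.4 and 592.9 CPM in untreated depleted cells. The groups did not overlap, but the second control replicate was low. The log2 fold change was 0.94 ± 0.29 (1.91-fold; adjusted p = 0.0298). This call was lost without the second control replicate (0.71, adjusted p = 0.0668) and without the first (0.94, 0.0678), second (0.88, 0.0932) or the third (0.99, 0.056) depleted replicate. With Cisplatin the control replicates stood at 301.2, 201.3 and 521.7 CPM and the depleted ones at 686.4, 722.3 and 647.5 CPM. The log2 fold change was 1.01 ± 0.29 (2.01-fold; adjusted p = 0.0142), and without the first control replicate it was 0.87 (adjusted p = 0.0581). In the additive fit it was 0.97 ± 0.19 (adjusted p = 0.00133) and passed in all 18 alternative fits. The coefficient of variation among replicates was 29.8 and 48.0% in the control groups and 7.86 and 5.46% in the depleted groups. Among control libraries NEAT1 was highest in treated replicate 3, which had the highest share of pairs outside annotated exons (7.54%). It was lowest in the second untreated and second treated replicates, which had the lowest shares (4.97 and 4.98%). The untreated depleted libraries had a lower share than treated control replicate 3 and more NEAT1. The part of that share in the result was not tested.

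TUG1 stood at 174.2, 171.5 and 160.6 CPM in untreated control cells and at 222.0, 222.7 and 193.6 CPM in untreated depleted cells. The groups did not overlap, and the log2 fold change was 0.33 ± 0.10 (1.26-fold; adjusted p = 0.0281). It no longer passed without the third control replicate (0.30, adjusted p = 0.0868), the first depleted replicate (0.30, 0.0952) or the second depleted replicate (0.30, 0.0993). With Cisplatin the control replicates stood at 170.4, 144.7 and 197.0 CPM and the depleted ones at 272.8, 269.2 and 261.5 CPM. The log2 fold change was 0.65 ± 0.10 (1.57-fold; adjusted p = 0.000418), and every alternative fit passed. Among treated control libraries TUG1 was highest where the share of pairs outside annotated exons was highest (7.54%) and lowest where it was lowest (4.98%). In untreated control cells the lowest TUG1 was not in the library with the lowest share. The part of that share in the TUG1 result was not tested. MORC2, the gene that overlaps TUG1 on the other strand, did not pass in untreated cells (0.12 ± 0.13, adjusted p = 0.526) and was higher by 0.41 ± 0.13 in Cisplatin-treated cells (adjusted p = 0.022).

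DANCR and PVT1 behaved differently from these 3 RNAs. DANCR stood at 38.5, 24.3 and 47.3 CPM in untreated control cells and at 37.2, 39.0 and 44.7 CPM in untreated depleted cells, with overlapping groups and no call (0.13 ± 0.23, adjusted p = 0.702). With Cisplatin it stood at 24.1, 14.5 and 25.2 CPM in control cells and at 31.6, 33.4 and 41.1 CPM in depleted cells. It was higher in depleted cells by 0.73 ± 0.24 (1.66-fold; adjusted p = 0.0254). That call was lost without the second control replicate (0.47, adjusted p = 0.098), the second depleted replicate (0.72, 0.0559) or the third depleted replicate (0.61, 0.102). In the additive fit DANCR differed by 0.43 ± 0.18 (adjusted p = 0.0646), and it passed without untreated control replicate 3 (0.56, adjusted p = 0.0135), with library size in place of the trimmed mean (0.45, 0.0412) and with the replicate number as a block (0.47, 0.0169). PVT1 did not pass in either depletion comparison. It stood at 21.8, 18.7 and 22.6 CPM in untreated control cells and at 25.0, 25.4 and 24.8 CPM in untreated depleted cells, where the groups did not overlap but the difference of 0.25 ± 0.15 missed the threshold (adjusted p = 0.224). In the Cisplatin-treated cells PVT1 differed by -0.23 ± 0.15 (adjusted p = 0.241).

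In untreated cells 3 of the 5 RNAs were thus higher with depletion, against 12.8% of tested genes, and none was lower, against 14.6%; the 1 RNA past 2-fold stood against 8.66%. In Cisplatin-treated cells 4 of the 5 were higher, against 21.1%, and none was lower, against 21.8%; MALAT1 and NEAT1 passed 2-fold, against 12.3%. The 2 depletion comparisons share no library, but they are not independent. Both come from 1 fit over all 12 libraries, and same-numbered untreated and treated control libraries deviated together (r = 0.635, 0.734 and 0.479).

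The Cisplatin comparison asked how the drug moved the same RNAs. In the additive fit MALAT1 rose, and PVT1 and DANCR fell, which puts 1 RNA higher, against 34.8% of tested genes, and 2 lower, against 32.1%. MALAT1 rose by 0.70 ± 0.18 (1.62-fold; adjusted p = 0.00338) and PVT1 fell by 0.51 ± 0.12 (1.43-fold; adjusted p = 0.00227), each in all 18 alternative fits. The summed epithelial markers, given above, were lower with Cisplatin under both hairpins, and their part in these results was not tested. DANCR fell by 0.49 ± 0.18 (1.40-fold; adjusted p = 0.0285), but this call was lost without the first (-0.44, adjusted p = 0.0556) or the third (-0.36, 0.0675) untreated control replicate and with library size in place of the trimmed mean (-0.39, 0.0558). NEAT1 differed by 0.06 ± 0.19 (adjusted p = 0.792). TUG1 differed by 0.17 ± 0.08 (adjusted p = 0.0778), and it passed with library size in place of the trimmed mean (0.27, adjusted p = 0.0104) and without the second Cisplatin-treated control replicate (0.22, 0.00802).

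In control cells DANCR fell by 0.79 ± 0.24 (1.73-fold; adjusted p = 0.0134), although 1 untreated replicate (24.3 CPM) lay within the range of the treated ones (14.5 to 25.2 CPM). The call was lost without the third untreated replicate (-0.56, adjusted p = 0.0678). MALAT1 differed by 0.48 ± 0.25 in control cells (adjusted p = 0.117). In a fit of the 6 control libraries with the replicate number as a block, chosen after the data were seen, MALAT1 rose by 0.40 ± 0.12 (adjusted p = 0.0142) and DANCR fell by 0.78 ± 0.09 (adjusted p = 2.14e-05). In that fit 9110 of 14719 tested genes passed, higher or lower, so these 2 calls do not set the RNAs apart. Without the second Cisplatin-treated control replicate, MALAT1 (0.73, adjusted p = 0.0101) and PVT1 (-0.41, adjusted p = 0.0355) passed as well. Of all tested genes 28% were higher and 27% lower with Cisplatin in control cells, against 0 and 1 of the 5 RNAs.

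In depleted cells MALAT1 rose from 220.3 to 236.6 CPM without Cisplatin to 384.7 to 465.2 CPM with it, and no library overlapped. The log2 fold change was 0.91 ± 0.25 (1.88-fold; adjusted p = 0.0067). TUG1 rose by 0.33 ± 0.10 (1.26-fold; adjusted p = 0.0128), with no overlap between 193.6 to 222.7 CPM and 261.5 to 272.8 CPM. This was lost without the third untreated (0.27, adjusted p = 0.0619) or the first Cisplatin-treated (0.28, 0.0588) depleted replicate. PVT1 stood at 25.0, 25.4 and 24.8 CPM without Cisplatin and at 16.0, 16.9 and 11.6 CPM with it. It fell by 0.76 ± 0.15 (1.69-fold; adjusted p = 0.000881). NEAT1 differed by 0.10 ± 0.28 (adjusted p = 0.787) and DANCR by -0.19 ± 0.23 (adjusted p = 0.505). The 2 RNAs that rose stood against 32.4% of tested genes, and the 1 that fell against 27.8%.

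**Figure D2:**
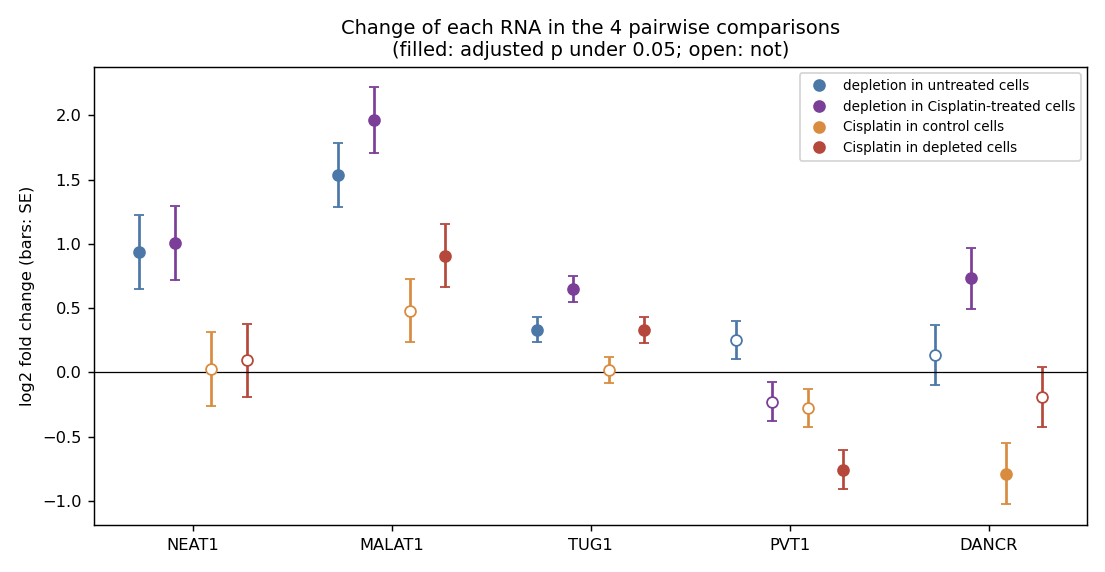
log2 fold change of each RNA in the 4 pairwise comparisons, with the standard error as whiskers; filled points passed an adjusted p of 0.05 and open points did not. MALAT1 was highest for both depletion comparisons, at 1.54 and 1.96, and PVT1 was lowest for Cisplatin in depleted cells, at -0.76.

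Whether depletion altered the response to Cisplatin was tested as an interaction. None of the 5 RNAs passed (edgeR quasi-likelihood test), against 1.98% of tested genes with a positive and 2.27% with a negative interaction. An unadjusted p under 0.05 was seen for 2 of them: TUG1 (0.32 ± 0.14, unadjusted p = 0.0469) and PVT1 (-0.48 ± 0.21, unadjusted p = 0.0414), with adjusted p-values of 0.224 and 0.209. DESeq2 also called 0 of the 5. The interaction was 0.43 ± 0.35 for MALAT1, 0.60 ± 0.33 for DANCR and 0.07 ± 0.40 for NEAT1, and none of these 3 passed at an unadjusted p under 0.05. That MALAT1 passed with Cisplatin in depleted cells and not in control cells is therefore not shown to be a difference between the hairpins.

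The order of the 4 conditions differed between RNAs. For NEAT1 the means ran 335.0, 341.4, 641.2 and 685.4 CPM through untreated control, Cisplatin-treated control, untreated depleted and Cisplatin-treated depleted cells, and the neighbours that shared a hairpin overlapped. MALAT1 followed the same order at 78.5, 109.5, 227.5 and 427.4 CPM, and its control groups alone overlapped. TUG1 also followed it, at 168.8, 170.7, 212.8 and 267.8 CPM, with overlap between the control groups and between treated control and untreated depleted cells. PVT1 ran from 14.8 CPM in Cisplatin-treated depleted cells through 17.4 and 21.0 CPM in treated and untreated control cells to 25.1 CPM in untreated depleted cells, and overlap was seen between the 2 lowest and between the 2 control groups. DANCR was lowest in Cisplatin-treated control cells, at 21.3 CPM, while the other 3 means, 35.4, 36.7 and 40.3 CPM, overlapped. Because CPM is a share of each library, fewer cells with an RNA and less of it per cell cannot be told apart.

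Per kilobase of annotated exon, which sets genes of different length side by side, the order of the RNAs changed with condition. Isoforms and exons outside the annotated transcripts, among them the short isoform of NEAT1, were not taken into account. In untreated control cells DANCR was highest at 42.9 ± 13.5 CPM per kb (SD, n = 3), followed by TUG1 at 22.02 ± 0.938, NEAT1 at 14.7 ± 4.39, PVT1 at 12.4 ± 1.21 and MALAT1 at 8.97 ± 1.67. In Cisplatin-treated depleted cells MALAT1 was highest at 48.8 ± 4.63 CPM per kb, followed by DANCR at 41.4 ± 5.87, TUG1 at 34.9 ± 0.759, NEAT1 at 30.1 ± 1.65 and PVT1 at 8.73 ± 1.67. By mean MALAT1 moved from the last place to the first, although in untreated control cells it overlapped NEAT1 by library. The kit captures RNA through a stretch of A, and MALAT1 and NEAT1 end differently from the other RNAs. How that bears on ranks across RNAs was not measured. The neighbours NEAT1 and PVT1 in the first condition, and MALAT1 and DANCR in the second, overlapped by library, and the other neighbours did not. Together the 5 RNAs took 0.0476 to 0.0954% of assigned pairs in control libraries and 0.104 to 0.155% in depleted ones.

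Splicing was read from the tables of skipped and mutually exclusive exons, in which each event has reads that include and reads that skip an exon. NEAT1 and MALAT1, with 1 exon each, had no event. TUG1, PVT1 and DANCR had 31 distinct events and 107 event comparisons, of which 86 had at least 10 reads in each library and were tested. Within a condition the 3 libraries are called a, b and c, since the tables do not name them.

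PVT1, whose 1 annotated transcript spans 210626 bases (chr8:128902874-129113499) with 8 exons that add up to 1699 bases, held the 1 event that passed. Its events reach beyond that transcript, to an exon that ends at 128806980, and also hold exons inside the span that it lacks. Exon 2 (chr8:128951754-128951922) and exon 3 (chr8:128996150-128996450) are recorded as alternatives between exon 1 and exon 4, although the annotated transcript holds both. The event thus sets the reads of exon 2 against those of exon 3. In depleted cells exon 2 made up 82.5, 78.8 and 81.9% of these reads, scaled for length, without Cisplatin and 74.0, 71.0 and 69.0% with it. The groups did not overlap, and the share of exon 2 fell by 9.73 percentage points (log2 odds -0.75 ± 0.21, adjusted p = 0.0439, edgeR). Leaving out 1 library ended the call in 5 of 6 fits, with adjusted p-values of 0.188 without untreated library a, 0.105 without untreated library c, and 0.095, 0.173 and 0.164 without treated libraries a, b and c. In control cells the shares were 83.2, 75.04 and 78.1% without and 75.9, 67.5 and 69.7% with Cisplatin, which overlapped, and the change of -7.75 points did not pass (adjusted p = 0.121). Read as a skipped exon between exons 1 and 4, exon 2 had a higher mean inclusion with Cisplatin, which did not pass. It was 86.5% without and 90.1% with Cisplatin in depleted cells (adjusted p = 0.682, edgeR). In control cells it was 84.8 and 94.5% (adjusted p = 0.712).

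Exon 3 of PVT1, read as a skipped exon between exons 2 and 4, gave values that share reads with the event that passed. Its inclusion level was 27.0, 31.1 and 29.5% in untreated control cells and 37.8, 55.7 and 52.6% with Cisplatin. In depleted cells it was 25.4, 31.2 and 23.2% without and 45.9, 55.8 and 47.8% with Cisplatin. The treated libraries lay above the untreated ones under both hairpins. The differences of 19.5 and 23.3 percentage points did not pass the adjusted threshold (log2 odds 1.24 ± 0.45, adjusted p = 0.409, and 1.45 ± 0.47, adjusted p = 0.081), and they rest on 186 and 187 skipping reads over 6 libraries. With depletion the same exon differed by -2.58 points in untreated cells (adjusted p = 0.849) and by 1.16 points in Cisplatin-treated cells (adjusted p = 0.984). The PVT1 event with the most reads was an exon that starts at 128902835, with 3599 inclusion and 11 skipping reads over the 6 control libraries, where it was included at 95.9% without and 100% with Cisplatin (adjusted p = 0.241).

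TUG1 has a cassette exon of 125 bases, chr22:31368034-31368158 in hg19, which separates 1 of its transcripts from the other 2. It is shown because both alternative events of TUG1 concern it, with capitals marking the exon and 20 intron bases on each side in lower case (chr22:31368014-31368178, plus strand, GRCh37).
TUG1 cassette exon: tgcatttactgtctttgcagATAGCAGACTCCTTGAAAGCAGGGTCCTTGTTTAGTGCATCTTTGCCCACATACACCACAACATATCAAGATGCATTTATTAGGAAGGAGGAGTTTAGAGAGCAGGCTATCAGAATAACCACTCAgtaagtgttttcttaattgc
The exon is flanked by ag and gt, the usual splice-site letters. The tables hold 2 events with it, joined to a downstream exon that starts at 31368841, as in the 2 transcripts without it, or at 31368910, as in the transcript that has it. These events share reads, and the level depends on which is taken. With the start at 31368841, which had the most reads, the inclusion level was 29.0, 35.5 and 34.7% in untreated control cells and 32.6, 33.5 and 36.1% with Cisplatin. In depleted cells it was 40.6, 42.1 and 34.8% without and 36.2, 35.7 and 45.1% with Cisplatin. All groups compared overlapped, and none of the 8 TUG1 tests passed, also at an unadjusted p under 0.05. The largest difference was 6.08 points with depletion in untreated cells (adjusted p = 0.699). With the start at 31368910 the inclusion level was 67.6, 71.1 and 64.6% in untreated control cells and 66.3, 65.4 and 77.8% with Cisplatin. In depleted cells it was 79.9, 82.9 and 66.2% without and 74.9, 75.7 and 74.7% with Cisplatin. Depletion in untreated cells again gave the largest difference, 8.56 points (adjusted p = 0.699), and the groups overlapped. In DANCR the event with the most reads was its exon of 136 bases, chr4:53578991-53579126, with 2820 inclusion reads and 1 skipping read over the 6 depleted libraries, and it did not pass (adjusted p = 0.682).

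**Figure D3:**
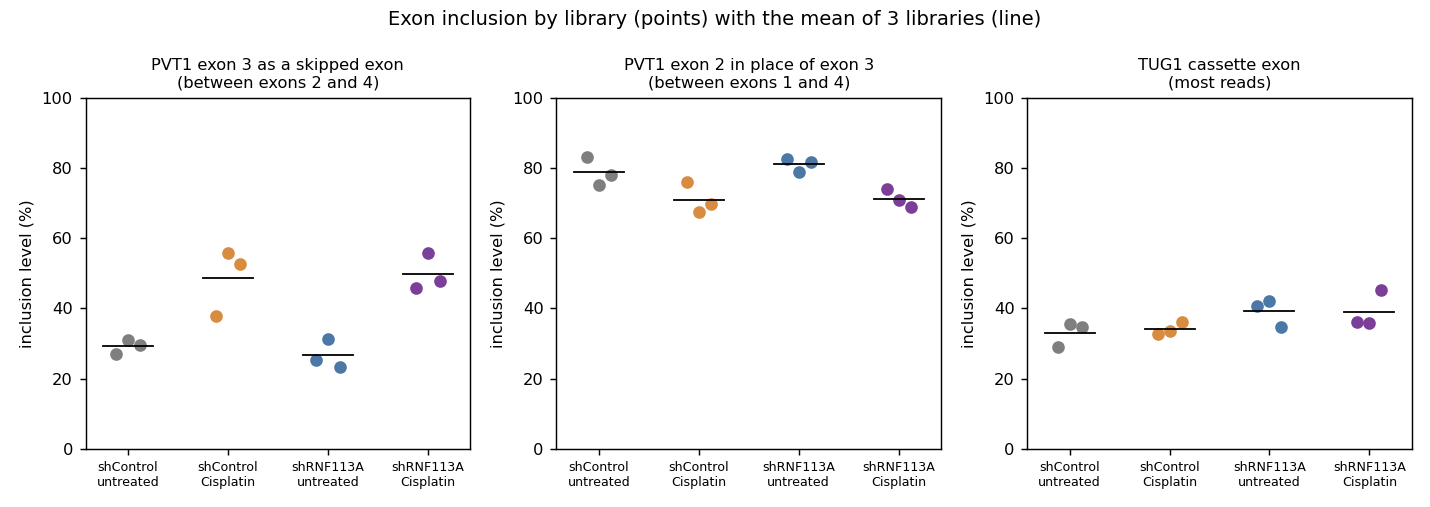
Inclusion level in percent of 2 PVT1 events and of the TUG1 cassette exon in the 12 libraries by condition; points are libraries and lines are means of 3. Mean inclusion of PVT1 exon 3 was 29.2 and 26.6% without and 48.7 and 49.9% with Cisplatin in control and depleted cells, while the TUG1 exon, for the event with the downstream start at 31368841, lay between 29.0 and 45.1%.

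The call rule for events asked for an adjusted p under 0.05 and inclusion levels at least 0.2 apart, and no event of the 5 genes met both in any comparison. With Cisplatin in control cells 0.315% of all skipped-exon events and 1.32% of mutually exclusive ones passed the adjusted p, and 0.0576 and 0.0812% met both conditions. In depleted cells these shares were 1.81 and 2.43%, and 0.261 and 0.135%. With depletion in untreated cells they were 0.0939 and 0.431%, and 0.0134 and 0.00731%, and in Cisplatin-treated cells 0.721 and 2.79%, and 0.0569 and 0.044%. At an unadjusted p under 0.05, PVT1 had 8 events with Cisplatin in control cells, 5 in depleted cells, 1 with depletion without the drug and 2 with the drug, of 18, 17, 19 and 15 tested. Many of these share reads, so they are not separate observations.

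Messenger RNAs of proteins that build paraspeckles on NEAT1 were taken as a list. Of 30 such genes 8 rose and 2 fell with depletion in the additive fit, against 23.5 and 24% of all genes, and the median change was 0.052 (log2) beside -0.0018 over all tested genes. NONO (0.01 ± 0.07, adjusted p = 0.948) and SFPQ (0.08 ± 0.08, adjusted p = 0.402), which coat NEAT1, did not pass, and neither did PSPC1 (-0.20 ± 0.08, adjusted p = 0.0635). SS18L1, a chromatin remodelling subunit, rose by 0.57 ± 0.08 (adjusted p = 7.14e-05), SMARCA4, the ATPase of the same remodeller, by 0.45 ± 0.08 (adjusted p = 0.000388), and UBAP2L by 0.37 ± 0.08 (adjusted p = 0.00303). HNRNPK, which steers NEAT1 isoform choice, fell by 0.23 ± 0.06 (adjusted p = 0.00526), and HNRNPH3 fell by 0.16 ± 0.06 (adjusted p = 0.041). With Cisplatin 4 of the 30 rose and 18 fell, where 34.8% of all tested genes were higher and 32.1% lower, with a median of -0.26 beside 0.029 over all genes. HNRNPR (-0.75 ± 0.09, adjusted p = 5.91e-06), RBMX (-0.58 ± 0.07, adjusted p = 1.01e-05) and HNRNPA1 (-0.58 ± 0.09, adjusted p = 4.77e-05), all RNA-binding proteins, fell most. Their means were 276.8, 347.3 and 25.3 CPM. NONO, SFPQ and PSPC1 fell by 0.19 ± 0.07, 0.31 ± 0.08 and 0.46 ± 0.08. AKAP8L (0.87 ± 0.09), ZNF24 (0.37 ± 0.07) and UBAP2L (0.36 ± 0.08) rose. NEAT1 itself did not pass with Cisplatin.

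Among 31 nuclear speckle proteins and MALAT1 processing factors, 11 rose and 5 fell with depletion, against the same 23.5 and 24% of all genes (median 0.061 beside -0.0018). RPP25, a subunit of RNase P and MRP, rose by 0.82 ± 0.12 (adjusted p = 0.000134), SRRM2, a core speckle protein, by 0.70 ± 0.13 (adjusted p = 0.000688), and PNN, also a speckle protein, by 0.67 ± 0.10 (adjusted p = 0.000105). SRSF3, DYRK3 and HNRNPC fell by 0.35 ± 0.07, 0.30 ± 0.08 and 0.25 ± 0.07. ELAC2, which trims the tRNA-like piece released from MALAT1, did not pass (0.20 ± 0.09, adjusted p = 0.081). With Cisplatin 17 rose and 7 fell, against 34.8 and 32.1% of all genes (median 0.18 beside 0.029). DYRK3, a kinase that dissolves speckles, rose by 1.76 ± 0.08 (adjusted p = 6.59e-10), POP1, a subunit of RNase P, by 1.01 ± 0.16 and CLK1, a kinase of SR proteins, by 0.84 ± 0.08. The splicing factors TRA2B (-0.98 ± 0.07), SRSF2 (-0.89 ± 0.09) and SRSF1 (-0.72 ± 0.06) fell.

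The genes listed around the 5 RNAs, the furthest of them ASAP1 at 1950 kb from PVT1, did not move as one block with them. Of 27 tested neighbours 12 rose and 4 fell with depletion (median 0.16), and 16 rose and 5 fell with Cisplatin (median 0.39), beside the same shares and medians over all genes. FRMD8, 9.27 kb from NEAT1, rose by 0.67 ± 0.11 with depletion (adjusted p = 0.000272) and by 1.48 ± 0.11 with Cisplatin (adjusted p = 6.15e-08), while NEAT1 rose with depletion and did not pass with Cisplatin. OSBP2, 61.4 kb from TUG1, rose most with depletion, by 1.09 ± 0.14 (adjusted p = 3.96e-05). RASL11B (0.99 ± 0.32, at a mean of 0.461 CPM), 148 kb from DANCR, and CDC42EP2 (0.80 ± 0.08), 100 kb from NEAT1, followed. ASAP1 (-0.41 ± 0.10), POLA2 (-0.40 ± 0.08) and FAM49B (-0.38 ± 0.06) fell most. POLA2 lies 124 kb from NEAT1 and FAM49B 1740 kb from PVT1. MYC, 149 kb from the start of the annotated PVT1 transcript, rose by 0.34 ± 0.09 with depletion (adjusted p = 0.00681) and fell by 0.32 ± 0.09 with Cisplatin (adjusted p = 0.00626), and PVT1 fell with Cisplatin too. With Cisplatin RASL11B (3.67 ± 0.35), SPATA18 (2.28 ± 0.18) and SLC25A45 (2.11 ± 0.08) rose most, and SCFD2, 159 kb from DANCR, fell by 3.14 ± 0.17. SPATA18 lies 615 kb from DANCR and SLC25A45 39.1 kb from NEAT1.

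Other regulatory long noncoding RNAs gave the background for the 5. Of 34 tested 17 rose and 3 fell with depletion, against 23.5 and 24% of all genes, with a median log2 fold change of 0.37 beside -0.0018 over all genes. TERC, the telomerase RNA, had the largest rise (1.64 ± 0.47, adjusted p = 0.0111) at a mean of 0.165 CPM, followed by the imprinted antisense RNA KCNQ1OT1 (1.503 ± 0.26, adjusted p = 0.000431) and MIAT (1.09 ± 0.30, adjusted p = 0.00948). OIP5-AS1 (-0.45 ± 0.06), LINC00152 (-0.29 ± 0.11) and CRNDE (-0.22 ± 0.08) fell. With Cisplatin 18 rose and 7 fell, against 34.8 and 32.1% of all genes (median 0.47 beside 0.029), with UCA1 (2.99 ± 0.53, mean 0.148 CPM), MEG3 (2.56 ± 0.37) and TINCR (2.27 ± 0.30) rising most and OIP5-AS1 (-0.83 ± 0.06), MIR17HG (-0.78 ± 0.17) and H19 (-0.71 ± 0.26) falling most. The lists were not tested against other genes.

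**Figure D4:**
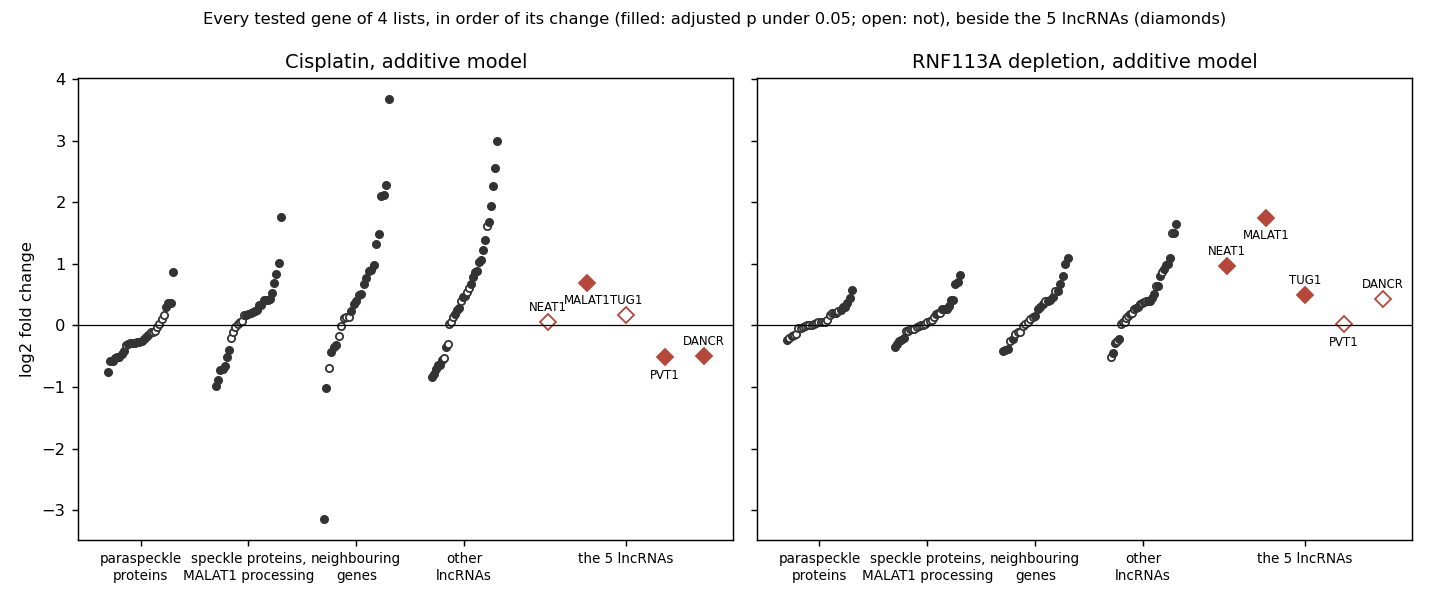
log2 fold change with Cisplatin (left) and with RNF113A depletion (right) in the additive fit for every tested gene of the 4 lists, sorted within each list, and for the 5 RNAs (diamonds); filled symbols passed an adjusted p of 0.05 and open symbols did not. With depletion MALAT1, at 1.75, lay above every listed gene, the nearest being TERC at 1.64, whereas PVT1 lay near 0.

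By pattern over the 12 libraries, the genes most like each RNA were found by Pearson r of log2 CPM among the 9779 candidates whose average was 10 CPM or more. For NEAT1 they were DDX12P (r = 0.978), OGT (0.970) and STAG3L5P-PVRIG2P-PILRB (0.953), for MALAT1 PTOV1-AS2 (0.981), MRPS25 (0.981) and SLC35C1 (0.975), and for TUG1 LENG8 (0.980), SLC25A37 (0.973) and LOC146880 (0.966). For PVT1 they were SLC38A1 (0.952), FAM135A (0.948) and RBM6 (0.946), and for DANCR TMEM126B (0.956), CFL1 (0.955) and TCHP (0.954). Among the 5 RNAs, MALAT1 was most like TUG1 (r = 0.949) and then NEAT1 (0.896), and PVT1 had r of -0.35 with TUG1, -0.30 with MALAT1, -0.0099 with NEAT1 and 0.23 with DANCR. These values describe 12 libraries that fall into 4 conditions and share depth and the share of reads outside exons.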

How the data were processed

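RNA from 12 A549 libraries (3 per condition) was sequenced as read pairs by the authors, who, per the labels, used bcl2fastq 2.17, cutadapt and STAR 2.5.2b with hg19 after removing ribosomal, tRNA and mitochondrial reads. The deposited gene counts are raw whole-number counts per gene, and the column for the gene's own strand was used. The deposited splicing tables from rMATS hold inclusion and skipping read counts per event (inclusion levels were recomputed per effective length), and transcript coordinates were taken from the deposited merged annotation. The fold changes, p-values and inclusion levels of the authors in those tables were not used.

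Counts were scaled by the trimmed mean of M values and tested with edgeR 4.0.16 (quasi-likelihood F test, filterByExpr, 15352 genes, Benjamini-Hochberg adjustment over all of them, threshold 0.05), in an additive model and in a model with 4 groups; SE is the log2 fold change divided by the square root of F. The 4 rows that name no gene were left out, and the share of 1 of them, pairs outside annotated exons, is given with the results. Events with at least 10 reads in every library were tested with edgeR on inclusion and skipping reads, with a library term. DESeq2 1.42.0 was an alternative. The scripts were tested on simulated data. The 5 RNAs, the gene lists and the tests were chosen with earlier results of these data known. Named genes were the 5 RNAs, RNF113A, the 3 largest rises and falls of each list with Cisplatin and with depletion, tested neighbours, and the 3 most similar genes of each RNA; NONO, SFPQ, PSPC1 and ELAC2 were named for their role, and HOTAIRM1, LINC-PINT and GAS5 for their interaction, after their values were seen. Events named were those that passed and those with most reads; exon 3 of PVT1 was added after its values were seen.

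Same-numbered replicates were compared by their deviations from the group means over 9779 genes. Untreated and Cisplatin-treated control libraries deviated together (r = 0.635, 0.734 and 0.479), which pairs them by the data and not by the labels; the depleted libraries did not all do so (0.411, -0.073 and 0.295). Intervals and errors cover the spread between these samples. The pairwise errors rest on an estimate of that spread that all groups share, so they do not give the spread of the groups compared. For NEAT1 the SE with Cisplatin was 0.28 in depleted and in control cells. Its replicates varied by 7.86 and 5.46% in the depleted groups and by 29.8 and 48.0% in the control groups.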

Additional observations from a re-analysis of the deposited data

Results flagged for a closer look

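None of the 5 RNAs had a Cisplatin effect that differed between control and depleted cells by the interaction test. Among genes named from the lists, 6 did, by the same test (edgeR quasi-likelihood, adjusted over 15352 genes). Of all tested genes 1.98% passed with a positive and 2.27% with a negative interaction. Positive and negative passes were 0 and 0 of 30 paraspeckle genes and 1 and 1 of 31 speckle and processing genes. They were 0 and 2 of 27 neighbours and 2 and 3 of 34 other noncoding RNAs. The named genes had been picked for large effects in the same data. TINCR, a noncoding RNA of epithelial differentiation, had an interaction of -1.96 ± 0.20 on the log2 scale (adjusted p = 0.00312), with a Cisplatin effect of 3.28 in control and 1.32 in depleted cells. H19 had -1.48 ± 0.33 (adjusted p = 0.0287), with 0.042 in control and -1.44 in depleted cells. SPATA18 had -1.13 ± 0.13 (adjusted p = 0.0046), with 2.85 and 1.72. FRMD8, the gene before NEAT1, had -0.65 ± 0.12 (adjusted p = 0.0165), with 1.81 and 1.16. HNRNPC had -0.38 ± 0.09 (adjusted p = 0.0324), with -0.46 and -0.85. SRSF2 had 0.52 ± 0.12 (adjusted p = 0.0322), with -1.15 and -0.63. Of the listed genes not named by the rule, HOTAIRM1 (1.15 ± 0.20, adjusted p = 0.0125), LINC-PINT (0.84 ± 0.21, adjusted p = 0.0454) and GAS5 (-0.48 ± 0.12, adjusted p = 0.0493) passed as well.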

How the results depend on the processing

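Of 635 values of single RNAs under alternative fits, 588 kept their direction and their side of the threshold. In the fit of control libraries with a replicate block, chosen after the data were seen, 2 of the 5 RNAs passed with Cisplatin in control cells in place of 1, and NEAT1 turned to -0.032. Of all genes tested in that fit, 9110 of 14719 passed. With the planned replicate block over all 12 libraries DANCR passed with depletion (0.47), which made 4 RNAs in place of 3, and no other call of the 5 changed; with library size DANCR passed too (0.45). With DESeq2 the additive depletion effect of PVT1 was -0.0097. Leaving out 1 library at a time gave 0 to 3 RNAs with Cisplatin in control cells and 1 to 3 with depletion in untreated cells. Changes of sign occurred in effects that had not passed: NEAT1 ranged from -0.14 to 0.17 with Cisplatin in the additive fit, from -0.40 to 0.30 with Cisplatin in control cells and from -0.24 to 0.46 for the interaction, TUG1 from -0.084 to 0.13 with Cisplatin in control cells, PVT1 from -0.047 to 0.11 with depletion in the additive fit, and DANCR from -0.091 to 0.36 with depletion in untreated cells. The cause was not tested. DESeq2 moved 7 of 56 list counts by over 1.5 times, among them the paraspeckle genes lower with depletion in Cisplatin-treated cells (7 in place of 4) and the other noncoding RNAs lower with depletion in the additive fit (5 in place of 3). The count of spliced events meeting both conditions stayed at 0 in the alternatives run. Depth limited the splicing tests, with 69 of 87 event comparisons tested in PVT1 and 9 of 12 in DANCR. Within the annotation, transcript length could alter a level per kb only in TUG1, since the other 4 RNAs have 1 annotated transcript. Both TUG1 values stayed within 1 SD. The short isoform of NEAT1, and exons of PVT1 and DANCR outside their annotated transcripts, could alter their levels per kb too and were not covered.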
